A study of Mus musculus with 12 samples.

Results

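The genes described here are 10 components of the pathway that carries cytokine signals from the cell surface to the nucleus, the kinases Jak1, Jak2 and Jak3, the transcription factors Stat3, Stat5a and Stat5b, and the feedback inhibitors Socs1, Socs2, Socs3 and Cish. They were chosen by name, with the STAT factors of the interferon response left out, and all 10 were found by their gene identifier among the 55335 genes of the count table. The table holds polyadenylated RNA of hematopoietic stem cells (HSCs) sorted from the bone marrow of C57B6 mice, in 12 libraries from 6 numbered samples. The Ythdc1 Δ/Δ samples KO176, KO177 and KO209 came from pIpC-treated mice with Mx1-Cre and floxed Ythdc1 alleles (Ythdc1 fl/fl), and the Ythdc1 +/+ samples WT178, WT180 and WT207 from pIpC-treated mice with Mx1-Cre and intact Ythdc1, with 2 libraries for each number. By the general methods, which are not stated for the sequenced animals in particular, donor mice were 8 weeks old and pIpC was injected 5 times. Both genotypes thus share the Mx1-Cre transgene, whose recombinase is switched on by interferon in HSCs and in other cells too, and the pIpC injections, which themselves set off interferon.

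The cytokine receptors of this pathway have no kinase activity of their own and are bound by Janus kinases (JAKs). When a cytokine joins the receptor chains, the JAKs phosphorylate each other and the receptor, and STAT proteins dock, are phosphorylated, pair and enter the nucleus, where they bind the palindrome TTCNNNGAA. Among the genes that STATs switch on are those of the SOCS family and Cish, which bind back to the JAKs or the receptor and end the signal. In HSCs, signals through Jak2 and the STAT5 factors are known to help maintain the stem cell pool.

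To show which of these genes carry the STAT palindrome at their start, the RefSeq promoter windows (GRCm38.p6, 250 bases before to 50 after each start) were searched for TTCNNNGAA, which reads the same on both strands. Windows were held for 9 of the 10 genes, 11 windows in all, and not for Socs2. The palindrome stood in the windows of Cish and Socs3 and was absent from those of Jak1, Jak2, Jak3, Stat3, Stat5a, Stat5b and Socs1. The window of Cish held 2 matches, where 0.457% of all 32851 windows held 2 or more, and the window of Socs3 held 1, where 8.30% of all windows held 1 or more. The matched stretches are printed 5′ to 3′ on the strand of the gene, with the palindromes in capitals. The Cish stretch lies at chr9:107296654-107296683 on the plus strand and runs across the RefSeq start, its palindromes beginning at bases 1 and 12 after that start. The Socs3 stretch lies at chr11:117969502-117969530 on the minus strand, before the RefSeq start, and its palindrome begins at base -154 from it. Both stretches lie inside the wider gene spans of GENCODE vM23, which are the coordinates given for the genes below, since that annotation starts both genes further upstream. A match is a description of the letters and not a bound site.
Cish: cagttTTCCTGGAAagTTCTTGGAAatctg
Socs3: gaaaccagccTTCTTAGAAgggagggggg

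Libraries held 20809936 to 24563170 counts, and the 2 libraries of a number were summed, giving 3 samples per genotype. Whether each number is a separate mouse is not in the labels, and the p-values therefore rest on a spread between samples that could be partly technical. Levels are given as CPM, a gene's counts scaled to the size of its library, with TMM factors, and fold changes as log2 of Ythdc1 Δ/Δ over Ythdc1 +/+. In sorted bulk cells, fewer cells of a type and less RNA per cell cannot be told apart. Ythdc1, the deleted gene, had CPM of 56.8 in KO176, 69.6 in KO177 and 69.6 in KO209 against 76 in WT178, 72.6 in WT180 and 92.5 in WT207, which is -0.30 on the log2 fold change scale (SE 0.13, adjusted p = 0.521, edgeR), with each Ythdc1 Δ/Δ value under the lowest Ythdc1 +/+ value and the difference not passing the test. Of 15 HSC markers, all tested, 13 had a lower mean in Ythdc1 Δ/Δ samples and none passed. Markers of other cells were present, since the 16 B cell markers had sums from 2868 to 6546 CPM in the Ythdc1 Δ/Δ group, against sums from 1119 to 1704 CPM in the Ythdc1 +/+ group, the 17 granulocyte markers from 13398 to 25082 against 11278 to 14551 CPM, the 13 macrophage markers from 68.3 to 81.1 against 50.4 to 62.6 CPM, and the 14 stroma and endothelial markers from 165 to 177.4 against 138 to 169 CPM. The higher mean was in Ythdc1 Δ/Δ samples for 15 of 16 B cell, 17 of 17 granulocyte, 9 of 12 macrophage and 9 of 11 stroma and endothelial markers that were tested, and for 5 of 12 T and NK cell and 8 of 13 megakaryocyte and erythroid markers. The 14 T and NK cell markers had sums from 532 to 759 CPM in the Ythdc1 Δ/Δ group against 642 to 792 CPM, mostly from Nkg7, with Cd3e at or under 0.344 CPM and Cd8a at or under 0.198 CPM, and the 14 megakaryocyte and erythroid markers from 222 to 326 against 323 to 432 CPM.

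None of the 10 genes passed an adjusted p of 0.05 in the comparison of 3 with 3 samples, by edgeR's quasi-likelihood test over 18234 genes, of which 25 (0.137%) passed. All 10 entered that test. With no adjustment, Socs2 alone had a p under 0.05, in the direction in which 4.28% of all tested genes did, and 0 members did in the lower direction, where 5.20% of all genes did. Socs2 was also the 1 member whose 3 Ythdc1 Δ/Δ values did not overlap its 3 Ythdc1 +/+ values, which held for 7.75% of all tested genes in the higher and 8.59% in the lower direction. The median log2 fold change of the 10 genes was -0.062, beside -0.0062 over all tested genes, with 3 members above 0 and 7 below.

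**Figure D1:**
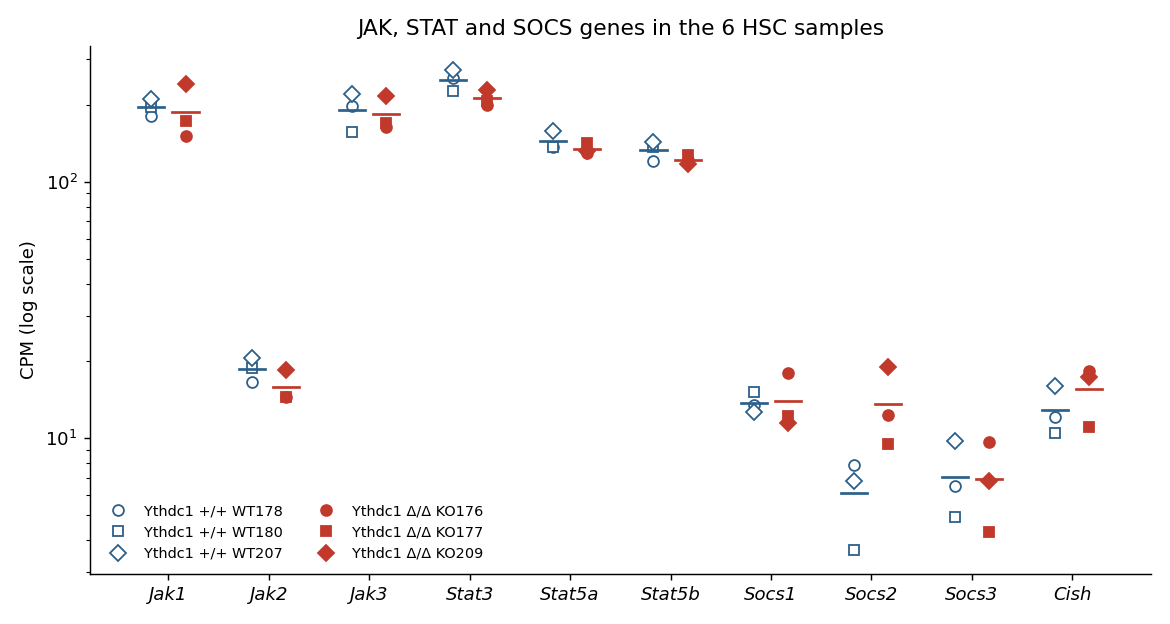
Level of each gene in CPM (log axis) in the 3 Ythdc1 +/+ samples (open blue symbols) and the 3 Ythdc1 Δ/Δ samples (filled red symbols), with a line at each mean. The values of the genotypes overlap for every gene but Socs2, whose lowest Ythdc1 Δ/Δ value of 9.49 CPM lies above the highest Ythdc1 +/+ value of 7.85 CPM.

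Jak1 and Jak3 were the abundant kinases of the set and Jak2 the scarce one. Jak1, which serves most cytokine receptors including those of the IL-6 and interferon families, lies at chr4:101152367-101265282 of mm10 on the minus strand. Its level was 151 CPM in KO176, 172 in KO177 and 240 in KO209, against 180 in WT178, 196 in WT180 and 211 in WT207. The Ythdc1 Δ/Δ samples held both the lowest and the highest value, so the groups overlapped throughout. The log2 fold change was -0.06 (standard error, SE, 0.17, 95% interval -0.44 to 0.32, adjusted p = 0.935, edgeR).

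Jak2, the kinase bound by the receptors for erythropoietin and growth hormone, lies at chr19:29251828-29313080 on the plus strand. It stood at 14.4 CPM in KO176, 14.4 in KO177 and 18.5 in KO209, against 16.6 in WT178, 18.8 in WT180 and 20.5 in WT207. KO176 and KO177 were below every Ythdc1 +/+ sample and KO209 fell among them. Its log2 fold change was -0.24 (SE 0.15, 95% interval -0.58 to 0.093, adjusted p = 0.648, edgeR), a difference that did not pass the test.

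Jak3, which works with the common gamma chain Il2rg and is best known from lymphocytes, lies at chr8:71676296-71690575 on the plus strand. It was at 164 CPM in KO176, 169 in KO177 and 216 in KO209, against 197 in WT178, 157 in WT180 and 219 in WT207. Each genotype had 1 or more samples near the lower and the upper end of the same range. Jak3 had a log2 fold change of -0.065 (SE 0.16, 95% interval -0.41 to 0.29, adjusted p = 0.922, edgeR). Of the exon bases of Jak3, 7.55% overlap Insl3, and reads there were assigned to neither gene. Its partner Il2rg was at 155, 172 and 222 CPM in KO176, KO177 and KO209, against 208.9, 221 and 191 CPM in WT178, WT180 and WT207, and had a log2 fold change of -0.18 (adjusted p = 0.73, edgeR). The T cell marker Lck was at 40.3 to 53.8 CPM over the 6 samples, with Cd3d at 0.45 to 0.685 CPM. Whether lymphocytes among the sorted cells have a part in the Jak3 level was not tested.

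Per length, the STAT genes were close in level to each other, and none passed the test between genotypes. Stat3, the factor downstream of IL-6 family receptors and G-CSF, lies at chr11:100885098-100939540 on the minus strand, next to Stat5a. It was at 199 CPM in KO176, 207.2 in KO177 and 228 in KO209, against 253 in WT178, 225 in WT180 and 273 in WT207. KO176 and KO177 were below all Ythdc1 +/+ samples, and KO209 was just above the lowest of them, WT180. The log2 fold change was -0.24 (SE 0.12, 95% interval -0.51 to 0.028, adjusted p = 0.571, edgeR), the smallest p among the 9 genes other than Socs2, at 0.0739 with no adjustment over genes.

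Stat5a and Stat5b are neighbouring copies of one gene and act downstream of IL-3 and growth hormone. Stat5a (chr11:100859351-100885169, plus strand) was at 130 CPM in KO176, 142 in KO177 and 132 in KO209, against 137 in WT178, 137 in WT180 and 158 in WT207. Stat5b (chr11:100780731-100850724, minus strand) was at 122 CPM in KO176, 127 in KO177 and 117 in KO209, against 120 in WT178, 136 in WT180 and 143 in WT207. For both genes the highest value was in WT207 and the groups overlapped. The log2 fold change was -0.10 for Stat5a (SE 0.11, 95% interval -0.34 to 0.15, adjusted p = 0.82, edgeR) and -0.12 for Stat5b (SE 0.11, 95% interval -0.37 to 0.13, adjusted p = 0.773, edgeR). Stat5a made up 44% to 47% of the per-length level of the pair in the 6 samples, 46.1% ± 0.786 (SD, n = 3) in Ythdc1 Δ/Δ and 45.7% ± 1.55 (SD, n = 3) in Ythdc1 +/+ samples, so the balance of the 2 copies differed by less than the spread between samples. Of the stretches of 50 bases in the annotated Stat5a transcripts, 8.21% also occur in Stat5b transcripts, and 11% of those of Stat5b occur in Stat5a. Reads that map to both places were not counted, so both levels may be slightly low.

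**Figure D2:**
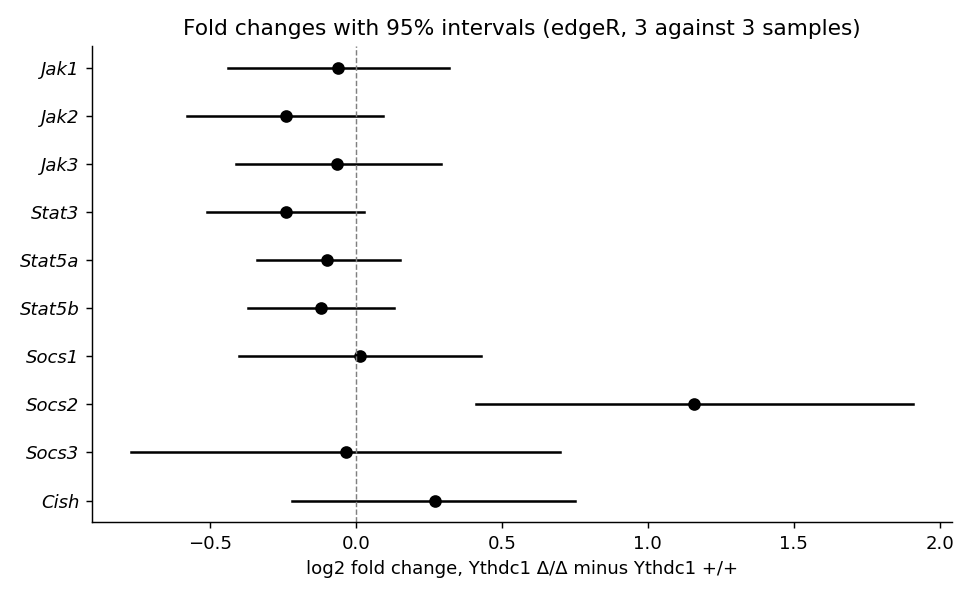
Log2 fold change (Ythdc1 Δ/Δ minus Ythdc1 +/+) of each gene with its 95% interval from the edgeR fit of 3 against 3 samples. The interval of Socs2, 0.41 to 1.91 with no adjustment for the number of genes, is the one that leaves out 0, and those of the 6 kinase and STAT genes lie between -0.58 and 0.32.

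Among the inhibitors, Socs2 was higher in every Ythdc1 Δ/Δ sample than in any Ythdc1 +/+ sample, at a low level, and this difference did not pass the test across all genes. Socs2, which is known for restraining growth hormone signalling through STAT5, lies at chr10:95385362-95417180 on the minus strand. Its level was 12.3 CPM in KO176, 9.49 in KO177 and 19 in KO209, against 7.85 in WT178, 3.67 in WT180 and 6.81 in WT207. The means were 13.6 ± 4.89 CPM (SD, n = 3) and 6.11 ± 2.17 CPM (SD, n = 3), a log2 fold change of 1.16 (SE 0.33, 95% interval 0.41 to 1.91), or 2.24-fold with an interval from 1.33 to 3.76. The p of edgeR's quasi-likelihood test was 0.00688 and 0.312 after adjustment over all genes, and the exact permutation test of 3 against 3 samples gave p = 0.1, 2-sided, the smallest it can give.

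The 2 libraries of each number gave close Socs2 values. In Ythdc1 Δ/Δ samples these were 11.6 and 12.5 CPM for KO176, 9.15 and 9.86 for KO177, and 18.1 and 20.8 for KO209. The Ythdc1 +/+ libraries were at 8.07 and 7.45 CPM for WT178, 3.95 and 3.4 for WT180, and 7.41 and 6.43 for WT207. No library of one genotype reached into the range of the other, though the gap between the highest Ythdc1 +/+ and the lowest Ythdc1 Δ/Δ library was narrower than the distance between KO177 and KO209. Socs2 did pass with DESeq2 (adjusted p = 0.0137), where 1.19% of all genes passed, with voomLmFit and the sample number as a random effect (adjusted p = 0.0399), where 0.842% passed, and with the 12 libraries entered as separate samples (adjusted p = 0.017), where 4.83% passed and libraries of one number were treated as independent. When the fit held a covariate that sets KO176, KO177, WT178 and WT180 apart from WT207 and KO209, the edgeR adjusted p was 0.136, and among KO176, KO177, WT178 and WT180 alone the log2 fold change was 0.92 (adjusted p = 0.412, edgeR). It was 0.84 without KO209 and 1.38 without WT178, the lowest and highest values with 1 sample left out.

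In Ythdc1 Δ/Δ samples, Socs2 and the summed B cell markers rose in the same order, from KO177 to KO176 to KO209. In Ythdc1 +/+ samples the orders differed, and Socs2 was highest in WT178, which had the lowest B cell sum. The 16 B cell markers summed to 4074 CPM in KO176, 2868 in KO177 and 6546 in KO209, against 1119 in WT178, 1485 in WT180 and 1704 in WT207, most of it from Igkc and Ighm, while Ms4a1 and Pax5 were at or under 0.95 and 0.384 CPM. Of the stroma and endothelial markers, Adipoq was at 2.18, 3.65 and 2.28 CPM in KO176, KO177 and KO209 and at 0.192, 0.187 and 0.512 CPM in WT178, WT180 and WT207, and passed the test (log2 fold change 3.16, adjusted p = 0.0218, edgeR), as Sparc did (1.78, adjusted p = 0.0456, edgeR), with Lum at or under 0.107 CPM in every sample. Among Ythdc1 Δ/Δ samples, Adipoq was highest in KO177, where Socs2 was lowest. The part of B cells and of stroma or endothelial cells in the Socs2 difference was not tested.

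**Figure D3:**
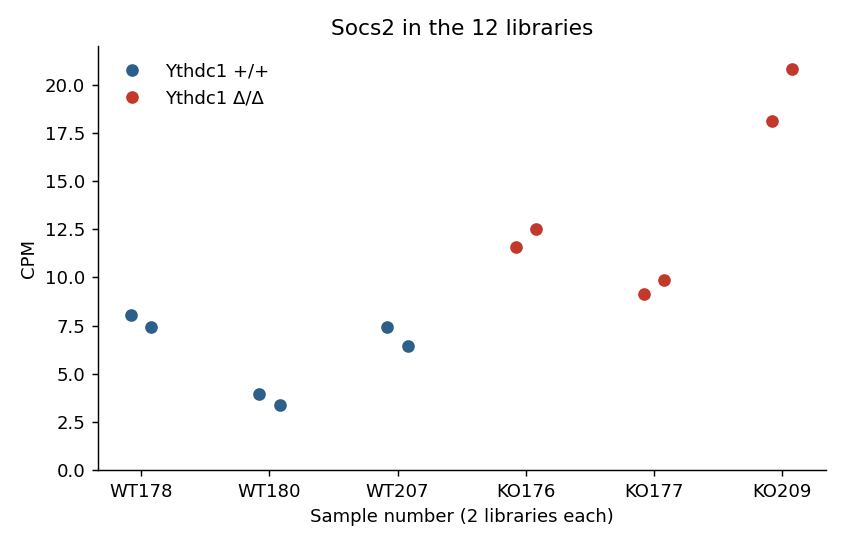
CPM of Socs2 in each of the 12 libraries, 2 per sample number, Ythdc1 +/+ in blue and Ythdc1 Δ/Δ in red. The values run from 3.4 to 8.07 CPM in Ythdc1 +/+ and from 9.15 to 20.8 CPM in Ythdc1 Δ/Δ libraries.

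Socs1, an inhibitor that binds JAKs and is induced by interferons, lies at chr16:10782240-10785536 on the minus strand. It was at 18 CPM in KO176, 12.2 in KO177 and 11.5 in KO209, against 13.5 in WT178, 15.1 in WT180 and 12.6 in WT207. KO176 was the highest of all and KO209 the lowest, so the genotypes overlapped, and the log2 fold change was 0.013 (SE 0.19, 95% interval -0.40 to 0.43, adjusted p = 0.988, edgeR). Upper quartile scaling gave -0.0041 and the fit without KO176 gave -0.21, so the sign is not fixed.

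Socs3, the main inhibitor of IL-6 and G-CSF signalling, has the printed palindrome before its RefSeq start and spans chr11:117966079-117970047 on the minus strand. Its level was 9.63 CPM in KO176, 4.31 in KO177 and 6.83 in KO209, against 6.53 in WT178, 4.94 in WT180 and 9.74 in WT207. Samples of each genotype reached both ends of the range. Its log2 fold change was -0.034 (SE 0.32, 95% interval -0.77 to 0.70, adjusted p = 0.984, edgeR), an interval that leaves room for a difference in either direction, and the value was 0.27 without WT207.

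Cish, the founding member of the family and a direct STAT5 target, has the printed pair of palindromes at its RefSeq start and spans chr9:107296026-107302784 on the plus strand. It was at 18.2 CPM in KO176, 11 in KO177 and 17.3 in KO209, against 12.1 in WT178, 10.5 in WT180 and 16 in WT207. KO176 and KO209 were above all Ythdc1 +/+ samples and KO177 was below most of them. On the log2 scale, the fold change was 0.27 (SE 0.22, 95% interval -0.22 to 0.75, adjusted p = 0.733, edgeR). Of its exon bases, 11.5% overlap the predicted genes Gm17040 and Gm17041, where reads were assigned to none of them.

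Per length, the members fell into a high and a low tier. In Ythdc1 +/+ samples, CPM per kilobase of exon was 35.7 ± 5.94 (SD, n = 3) for Jak3, 27.1 ± 2.14 for Jak1, 26.3 ± 2.55 for Stat3, 24 ± 2.11 for Stat5b and 20.2 ± 1.67 for Stat5a. The low tier held Socs1 at 4.72 ± 0.434, Jak2 at 3.71 ± 0.393, Socs3 at 2.45 ± 0.845, Cish at 2 ± 0.438 and Socs2 at 0.641 ± 0.228. Of neighbours in this order, the sample values of Jak1 and Stat3, Stat3 and Stat5b, Stat5b and Stat5a, Jak2 and Socs3, and Socs3 and Cish overlapped, and those of the other pairs did not, though Jak3 and Jak1 were parted only narrowly (lowest Jak3 value 29.3, highest Jak1 value 29.2). In Ythdc1 Δ/Δ samples the order was the same but for Cish at 2.41 ± 0.607 (SD, n = 3) and Socs3 at 2.39 ± 0.921, which exchanged places within their spread, and Socs2 remained lowest at 1.43 ± 0.513, with values that overlapped those of Socs3. There Jak3 and Jak1 overlapped too, while Stat5b and Stat5a did not. The order of the inhibitors depends on the annotated exon length, 9531 bases for Socs2, 6419 for Cish, 2908 for Socs1 and 2891 for Socs3. In CPM, not divided by length, the Ythdc1 Δ/Δ means were 13.6 for Socs2, 15.5 for Cish, 13.9 for Socs1 and 6.92 for Socs3. The Ythdc1 +/+ means were 6.11, 12.9, 13.7 and 7.07 CPM. Jak2 made up 4.76% to 6.23% of the summed per-length level of the 3 JAK genes, 4.98% ± 0.255 (SD, n = 3) in Ythdc1 Δ/Δ and 5.6% ± 0.586 (SD, n = 3) in Ythdc1 +/+ samples, which overlapped (exact permutation p = 0.2, 2-sided). Within the summed per-length level of the 4 inhibitors, Socs2 made up 9.47%, 11.9% and 18.1% in KO176, KO177 and KO209. In WT178, WT180 and WT207 it made up 8.58%, 4.32% and 6.55%, with no overlap (exact permutation p = 0.1, 2-sided, the smallest possible). These shares are built from the same Socs2 values as above and are not a separate result.

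**Figure D4:**
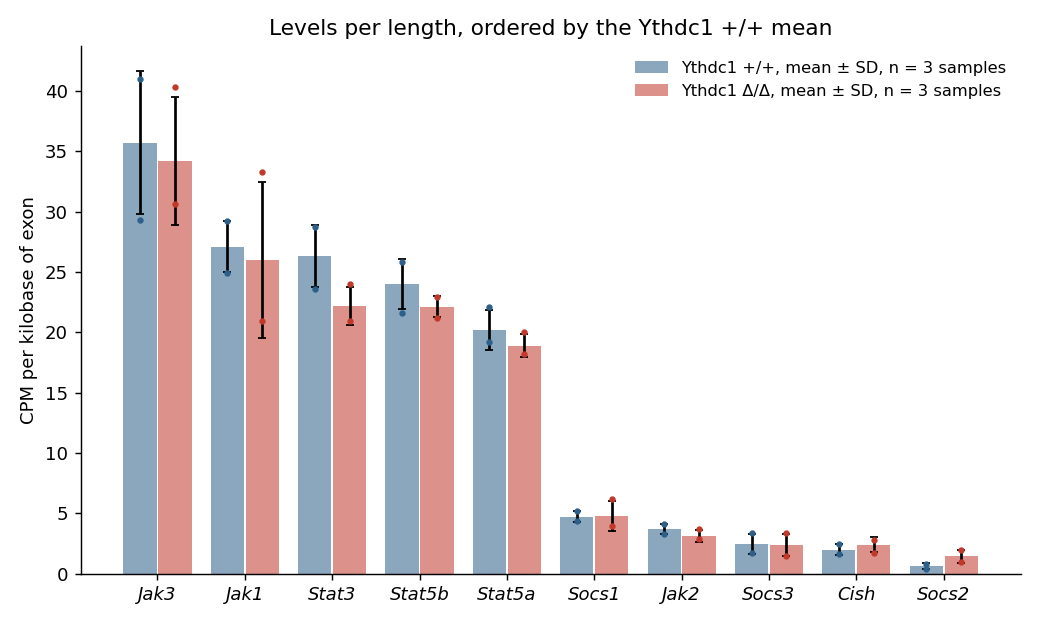
Level of each gene in CPM per kilobase of exon in Ythdc1 +/+ (blue) and Ythdc1 Δ/Δ (red) samples, ordered by the Ythdc1 +/+ mean; bars are means, error bars SD over 3 samples, and dots the lowest and highest sample. The means of Jak3, Jak1 and the STAT genes stand at 18.9 or more in both genotypes, and those of Jak2 and the inhibitors at 4.77 or less.

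The other genes of the pathway were described as 7 lists, of which 134 genes of 151 were tested. Lepr was the 1 gene among them that passed, and it rose in Ythdc1 Δ/Δ samples. Their median log2 fold change was 0.048, with 80 genes above 0 and 54 below. With no adjustment, 8 had a p under 0.05 in the higher and 7 in the lower direction, near the shares of 4.28% and 5.20% over all tested genes.

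Of the 37 cytokine receptors, 36 were tested, 26 were above 0 and 10 below, and the median was 0.16. Lepr, the leptin receptor, which marks stromal cells of the bone marrow, was at 1.73 CPM in KO176, 1.78 in KO177 and 1.76 in KO209, against 0.144 in WT178, 0.291 in WT180 and 0.427 in WT207, a log2 fold change of 2.58 (SE 0.32, adjusted p = 0.0218, edgeR). All Ythdc1 Δ/Δ values were nearly equal and lay far above the others, but Lepr had only 281 reads in all, 3 to 54 per library. Single libraries ran from 1.37 to 2.22 CPM in Ythdc1 Δ/Δ and from 0.141 to 0.639 CPM in Ythdc1 +/+ samples. The stromal genes Cxcl12, Kitl and Adipoq were also higher in every Ythdc1 Δ/Δ sample, with log2 fold changes of 2.17 (adjusted p = 0.0858, edgeR), 1.43 (adjusted p = 0.302, edgeR) and 3.16. They belong to the 11 tested stroma and endothelial markers, of which 9 were above 0 and 2 below. Of these 11, 5 had no overlap in the higher and 1 in the lower direction, beside 7.75% and 8.59% of all tested genes. Whether stromal RNA accounts for the Lepr reads was not tested. In the edgeR fits without KO177, WT178, WT180 or WT207, and with a minimum count of 50, Lepr did not pass (adjusted p from 0.053 to 0.195), with log2 fold changes of 2.29 to 2.97.

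Among abundant receptors in Ythdc1 +/+ samples, Il2rg stood at 86.8 CPM per kilobase of exon, Ifngr1 at 76.3 and Csf3r, the G-CSF receptor, at 46.1. In Ythdc1 Δ/Δ samples they stood at 76.6, 83.3 and 48.7. Of the exon bases of Il2rg, 30.5% overlap Gm20489, where reads were assigned to neither gene, so its level per length may be low. The growth hormone receptor Ghr had a log2 fold change of -0.67 (adjusted p = 0.445, edgeR) and the IL-13 receptor chain Il13ra1 of 0.72 (adjusted p = 0.432, edgeR). Both were named for their small p, stood at 3.37 CPM or less and had no overlap between genotypes. Of the 36 tested receptors, 5 had no overlap in the higher and 2 in the lower direction. Over all tested genes these shares were 7.75% and 8.59%. Ifngr1, a chain of the interferon gamma receptor, and Csf3r had log2 fold changes of 0.13 and 0.082 with adjusted p of 0.87 and 0.879 (edgeR).

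Most ligand genes were barely read. Of 28 ligand genes, 18 stayed under 1 CPM in every sample, 13 were tested and none passed, with a median log2 fold change of -0.26. Il3 had 0 of 273989355 counts, which allows up to 0.0109 CPM, an upper limit for counting error only. Thpo and Epo, which are made outside the marrow's stem cells, were at or under 0.083 and 0.0606 CPM. The most abundant per length in Ythdc1 +/+ samples were Il12a, a subunit of IL-12, at 60.2 CPM per kilobase, and Ebi3, a subunit of IL-27, at 35. Il15 followed at 21.2 and Osm at 8.77. Of the exon bases of Ebi3, 23.4% overlap Gm16712, where reads were assigned to neither gene. Il4 was at 0.663 CPM in KO176, 1.76 in KO177 and 1.54 in KO209, against 2.59 in WT178, 2.51 in WT180 and 3.16 in WT207, with a log2 fold change of -1.05 (SE 0.30, adjusted p = 0.302, edgeR). The Il4 groups did not overlap, as for 8.59% of all tested genes in the lower direction, and the difference did not pass. Neither did it pass with DESeq2 (adjusted p = 0.0892) or voomLmFit (adjusted p = 0.118). It did with 12 separate libraries (adjusted p = 0.0291, edgeR). In that fit 4.83% of the tested genes passed, and libraries of one number were treated as independent. Ebi3 had a log2 fold change of -0.34 (adjusted p = 0.508, edgeR), Il15 of -0.21 (adjusted p = 0.697), Il12a of 0.19 (adjusted p = 0.7) and Lif, at 0.747 CPM or less, of 0.75 (adjusted p = 0.643).

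**Figure D5:**
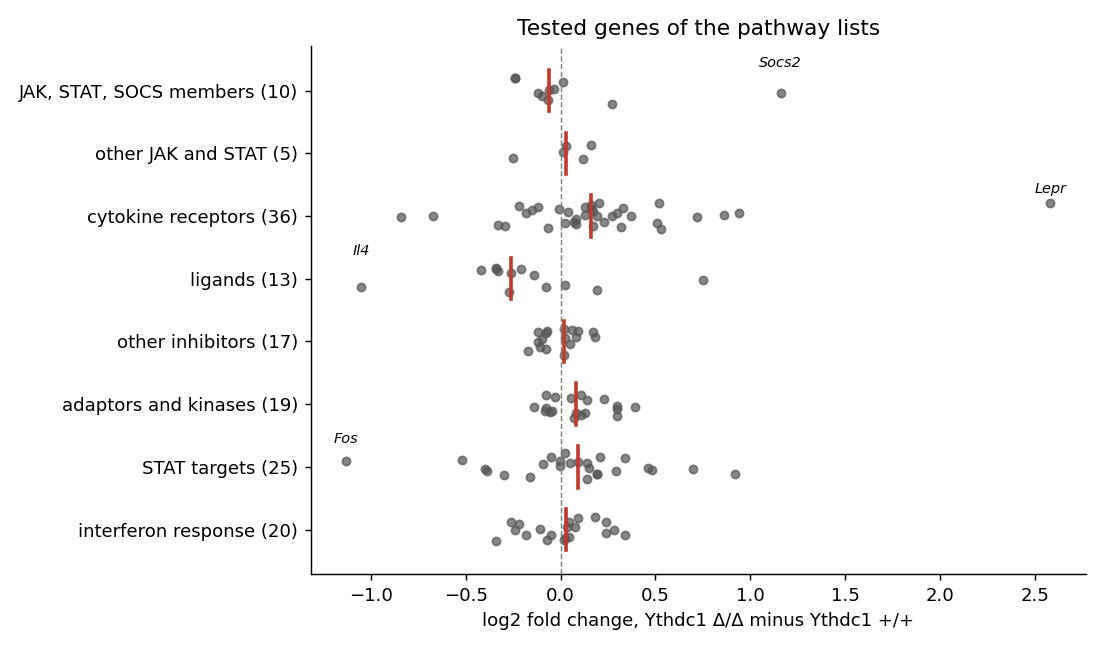
Log2 fold change (Ythdc1 Δ/Δ minus Ythdc1 +/+) of each tested gene in the member set and in 7 lists of the pathway, with the number tested in brackets and a red line at each median; names mark genes beyond 1 in size. Medians lie between -0.26 for ligands and 0.16 for receptors, and Lepr at 2.58 is the gene that passed the test.

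The remaining components showed smaller differences. Of 5 other JAK and STAT genes none passed, and log2 fold changes were -0.25 for Stat2, 0.16 for Stat4, 0.12 for Stat6 and 0.027 for Tyk2 (adjusted p from 0.697 to 0.959, edgeR). All 17 other inhibitors, which include the remaining SOCS genes, the PIAS proteins and phosphatases, were tested, lay within 0.18 of 0 on the log2 scale and had a median of 0.017, with Sh2b3, an adaptor that dampens Jak2 signalling, at 0.18 (adjusted p = 0.697, edgeR), Cblb at 0.17, Pias3 at -0.17 and Pias4 at -0.12. Of the 20 adaptors and downstream kinases, 19 were tested with a median of 0.08 and none passed. Pik3cd, a catalytic subunit of PI3 kinase, had the smallest p, at 79.2, 83.4 and 97.2 CPM in KO176, KO177 and KO209 against 63.4, 75.9 and 71.6 CPM in WT178, WT180 and WT207, a log2 fold change of 0.30 (adjusted p = 0.471, edgeR), followed by Stam and Sos2 at 0.23 and 0.30.

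The 25 STAT target genes had a median log2 fold change of 0.091, with 15 above 0 and 10 below, and none passed the edgeR test of summed samples. The members with the smallest p lay on both sides of 0. Junb, a subunit of AP-1, was at 76.4, 101 and 89.9 CPM in KO176, KO177 and KO209 against 140, 136 and 107 CPM in WT178, WT180 and WT207 (log2 fold change -0.52, adjusted p = 0.286, edgeR), and Fos at 261, 342 and 274 CPM against 958, 574 and 385 CPM (-1.13, adjusted p = 0.322, edgeR). Ccnd1, cyclin D1, was at 94.4, 70.5 and 54.4 CPM in KO176, KO177 and KO209 against 27.3, 46.6 and 42.3 CPM in WT178, WT180 and WT207 (0.92, adjusted p = 0.298, edgeR), with 23.4% of its exon bases shared with LTO1. Id1 was at 0.70 (adjusted p = 0.43, edgeR). The genotypes did not overlap for any of these 4, which were picked for their small p. Of the 25 targets, 3 had no overlap in the higher and 3 in the lower direction. Over all tested genes these shares were 7.75% and 8.59%. Ccnd1 passed with DESeq2 (adjusted p = 0.0163) and voomLmFit (adjusted p = 0.0291), and Fos with DESeq2 (adjusted p = 0.00503). Of the genes tested there, 1.19% passed with DESeq2 and 0.842% with voomLmFit. Ccnd1, Fos and Junb passed with the 12 libraries entered as separate samples (adjusted p from 0.0138 to 0.0294, edgeR). In that fit 4.83% of the tested genes passed, and libraries of one number were treated as independent. The proviral kinases Pim1, Pim2 and Pim3 and the survival genes Bcl2, Bcl2l1 and Mcl1, well known STAT5 and STAT3 targets named here for that role after their values were seen, stood at 0.14, -0.40, -0.049, 0.34, 0.051 and -0.30 on the log2 fold change scale, with adjusted p of 0.617 or more (edgeR).

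The 20 interferon response genes had a median of 0.027 and none passed. Their summed level varied widely within each genotype and was 5426 CPM in KO176, 3053 in KO177 and 1436 in KO209, against 2992 in WT178, 5104 in WT180 and 1748 in WT207. In each genotype the sample with the highest sum, KO176 and WT180, also had the highest Socs1 value, and KO209 and WT207 had the lowest sum and the lowest Socs1. Irf1, the 1 gene of the list without overlap between genotypes, had a log2 fold change of -0.24 (adjusted p = 0.529, edgeR), Gbp2 of -0.34 (adjusted p = 0.5, edgeR), and Irf9 and Gbp3 of -0.22 and 0.28. No overlap in the lower direction held for 8.59% of all tested genes.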

How the data were processed

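The authors aligned reads to mm10 with Hisat2, and the deposited table holds raw counts of read pairs per gene from featureCounts 2.0.1 on GENCODE vM23 exons, per the file headers, counted without a strand setting and leaving out reads that map to several places or fall in 2 genes. Libraries were made by SMARTer amplification, molecular identifiers are not named, and intervals of counts cover counting error only. Libraries held 20809936 to 24563170 counts. Here, the 2 libraries of each sample number were summed, genes kept by filterByExpr (minimum count 10, minimum total 15), scaled by TMM and tested with edgeR 4.0.16 (quasi-likelihood, robust) in R 4.3.3. Adjusted p-values of this main fit are Benjamini-Hochberg values over 18234 genes, with a threshold of 0.05. Those of the alternative fits were adjusted over their own gene sets, from 13446 genes with a minimum count of 50 to 45534 with no filter. Genotypes came from the labels. The exon length of the table gave levels per kilobase.

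The members and the gene lists were chosen with earlier results of these data known. Named are all members, Ythdc1, up to 4 genes of each pathway list with the smallest p, and up to 4 receptors and ligands with the highest level per length; other genes are named as markers or for their role. Some genes that this rule names are not reported here. On simulated data of 3 against 3 samples over 18234 genes, the fit recovered 8.36% of 1.5-fold changes, 48.7% of 2-fold changes and 84.2% of 4-fold changes, and 9.95% of calls were false. Alternatives were limma 3.58.1 (voomLmFit), DESeq2 1.42.0, other scalings, filters and sample subsets. The FPKM values that the methods name were not used here.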

Additional observations from a re-analysis of the deposited data

How the results depend on the processing

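Over 16 alternatives, 6 of the 10 members kept the sign of their log2 fold change and 4 did not. The number of members called was 0 in the edgeR comparison of summed samples and 1, Socs2, with 12 separate libraries, with voomLmFit and with DESeq2. Leaving out 1 sample gave 0 each time. Called genes of the pathway lists numbered 1 in the main comparison, 6 with 12 libraries, 3 with voomLmFit, 4 with DESeq2, 0 with a minimum count of 50, and 0 to 1 with 1 sample left out. The causes were not tested, except that the 12 libraries count each sample number more than once. Over all genes that each fit tested, 25 were called in the main comparison, 751 with 12 libraries, 217 with DESeq2 and 131 with voomLmFit. The number called was 3 with a minimum count of 50, and 1 (without WT178) to 81 (without KO209) with 1 sample left out.

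Signs turned for 4 members and 5 other named genes. Without 1 sample, Jak1 ran from -0.28 to 0.082, Jak3 from -0.20 to 0.046, Socs1 from -0.21 to 0.13, Socs3 from -0.33 to 0.27, Tyk2 from -0.022 to 0.083, Ifngr1 from -0.11 to 0.31, Csf3r from -0.046 to 0.18, Osm from -0.048 to 0.11 and Gbp3 from -0.15 to 0.58. Socs1 was also -0.017 with voomLmFit and -0.0041 with upper quartile scaling. Among KO176, KO177, WT178 and WT180 alone, Socs3 was 0.27, Tyk2 -0.032 and Csf3r -0.026. No paired analysis was possible because the genotypes share no replicate number. With 3 samples per genotype, changes under 2-fold were mostly not recovered on simulated data, so an adjusted p above the threshold does not show equal levels.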

Other observations

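Some receptors outside the named set varied more between samples of a genotype than between genotypes. The IL-6 receptor chain Il6ra was at 102, 72.3 and 47 CPM in KO176, KO177 and KO209 and at 54, 65 and 35.7 CPM in WT178, WT180 and WT207, and the IL-3 receptor chain Il3ra at 22.8, 16.9 and 7.64 CPM and at 14.1, 18.7 and 12 CPM. Both were lowest in the sample with the highest number of each genotype, as the interferon response genes were. Csf2rb, the shared chain for IL-3, GM-CSF and IL-5, was at 109 CPM in KO176 and between 44.3 and 63 CPM in the other 5 samples, beside the highest granulocyte marker sum, 25082 CPM. These genes were chosen after their values were seen.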
